A study of Mus musculus with 12 samples.

Results

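The comparison described here set resting peritoneal macrophages that carry the Ythdf1 knockout label against wild-type (WT) resting macrophages. It rests on 6 of the 12 mRNA libraries of the series, namely all 3 libraries labelled Ythdf1 knockout and treated with PBS and all 3 libraries labelled WT and treated with PBS. The other 6 libraries are the same labels after lipopolysaccharide (LPS), and they served to see whether a difference at rest was also present after stimulation. They also entered the fit, since its filter and its estimate of spread were shared by all 12 libraries. All genes were considered, 16920 in each table, of which 12064 were abundant enough to be tested.

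Peritoneal macrophages were drawn into the abdominal cavity with an irritant, which the series record gives as a 3-day course of 6% starch broth and the study's methods give as thioglycollate. They were cultured overnight and then kept for 6 h with PBS or with 1 µg/mL LPS before RNA was taken. Both genotypes were on a C57BL/6 background, the substrain of which is not given in the sources used here, and mice of 6 to 10 weeks were used in the study. The knockout was made with CRISPR/Cas9, as the study describes it, and no sort on surface markers is described before culture. The labels' protocol speaks of independent samples as biological replicates, without saying how many mice or cell preparations gave them. The p-values thus weigh each difference against the spread between samples of a group, estimated over all 12 libraries.

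Ythdf1 encodes a cytoplasmic protein that binds mRNA carrying the mark N6-methyladenosine (m6A). That mark is written on mRNA by a methyltransferase complex, and its readers affect how long a transcript lasts and how well it is translated. Elicited peritoneal macrophages are largely cells that entered the cavity as blood monocytes and matured there. In culture without a stimulus they keep scavenging, lysosomal and complement genes at high levels, and a low tonic output of interferon and chemokine genes.

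The 6 resting libraries held 21610299 to 21999329 counts each. The first principal component of these libraries held 70.1% of the variance and separated the labels, while the second held 9.61% and set replicate 3 of the KO-labelled group apart from the other 5. In that library Il1b, the precursor of an inflammatory cytokine, reached 3.22 CPM (the gene's count relative to the scaled library total), against 0.49 and 0.597 CPM in the other KO-labelled libraries. The general macrophage genes were abundant and steady, with a summed 17706 to 18223 CPM in WT and 18796 to 18957 CPM in KO-labelled libraries, so the macrophage label of both groups fits these markers.

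The targeted gene did not mark the knockout label at the mRNA level. Ythdf1 (gene 228994, chromosome 2) stood at 43.6, 45 and 41.9 CPM in the WT libraries and at 55.4, 58.1 and 58.1 CPM in the KO-labelled libraries. Every KO-labelled library thus lay above every WT library, and the fitted log2 difference was 0.40 ± 0.058 (SE, n = 3 per group, edgeR adjusted p = 1.33e-04). The study reports genotyping of its knockout mice, and YTHDF1 immunoblots of liver and spleen from chimeric mice. The tables used here hold 1 value per gene, so a deletion that leaves most of the transcript in place cannot be seen in them. All differences below are therefore differences between libraries that bear these labels. Among 21 genes of the m6A machinery, 5 were higher (23.8%) and 1 was lower (4.76%), where 12.3% of all genes were higher and 13.0% lower. The readers Ythdf3 (0.39) and Ythdc1 (0.30), the RNA-binding protein Hnrnpa2b1 (0.24) and the writer-complex subunit Zc3h13 (0.19) were called higher with Ythdf1 on the log2 scale. With a correction for GC content, Ythdc1 (0.14, adjusted p = 0.0599) and Hnrnpa2b1 (0.09, adjusted p = 0.275) did not pass. With upper-quartile scaling in edgeR, Zc3h13 (0.17, adjusted p = 0.0617) and Hnrnpa2b1 (0.22, adjusted p = 0.0591) did not pass. Zc3h13 also lost its call when some single libraries were left out. Igf2bp2, which binds and stabilises mRNA, fell from a mean of 50 to 29.6 CPM (log2 fold change -0.76, adjusted p = 1.34e-06).

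Over all genes tested, 1486 (12.3%) were called higher and 1572 (13.0%) lower with the knockout label at an adjusted p under 0.05. These shares are the background against which each gene group below should be read. Without KO-labelled replicate 1 there were 1074 higher and 918 lower genes, and without WT replicate 1 there were 1117 and 949. With scaling by library totals alone the balance tipped, to 1991 higher and 1241 lower genes, so that 61.6% of the calls were higher against 48.6% with the scaling used here. Most differences were small, with a median size of 0.40 log2 units among the called genes. Beyond 1 log2 unit the balance was uneven, with 72 genes higher and 327 lower. All KO-labelled libraries lay above all WT libraries for 23.5% of the genes tested and below them for 24.6%. Among the called genes only 27 had libraries that overlapped between the labels.

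**Figure D1:**
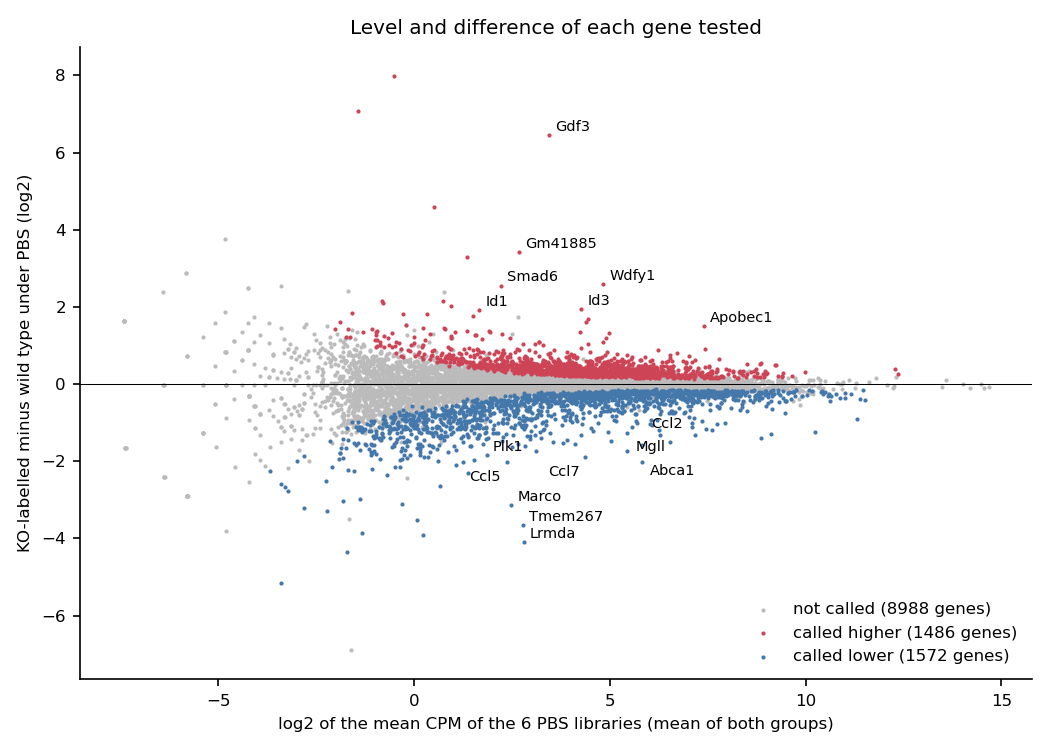
Difference between KO-labelled and WT resting macrophages (log2, vertical axis) against the mean level of both groups (log2 CPM, horizontal axis), 1 point per gene tested; 18 genes at 0 in all 6 libraries are not drawn. Red points are the 1486 genes called higher and blue points the 1572 called lower; Gdf3 stands far above every other gene of its level, at 6.45, and Lrmda, Tmem267 and Marco lie lowest among the abundant genes.

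Of the 15 genes that rose most, 5 were in the list of transforming growth factor beta (TGF-beta) and bone morphogenetic protein (BMP) signalling. These were Gdf3, Smad6, Id3, Id1 and Skil. That list held 36 of the 12064 genes tested, and it was drawn up with earlier results of these data known. The overlap is therefore not independent of those results, and whether it exceeds the list's share of all genes was not tested. Gdf3 encodes a secreted ligand of the TGF-beta family. It was counted at 0.253, 0.25 and 0.214 CPM in WT and at 20.5, 21.4 and 22.3 CPM in KO-labelled libraries. In raw counts, that was 7, 7 and 6 against 587, 610 and 630. The log2 fold change was 6.45 ± 0.138 (SE, adjusted p = 2.08e-14). All 12 tables gave Gdf3 decimal values, which arise where reads are shared between genes.

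Smad6, an inhibitor that BMP signals switch on as a brake, stood at 1.63, 1.07 and 1.36 CPM in WT and 7.18, 8.25 and 8.36 CPM in KO-labelled libraries (log2 fold change 2.55 ± 0.156, adjusted p = 1.41e-08). Id3, a helix-loop-helix protein that blocks differentiation factors, went from 6.87, 8.23 and 8.72 CPM to 29.3, 32 and 30.6 CPM (1.95 ± 0.083, adjusted p = 2.44e-10). Its relative Id1 went from 1.37, 1.11 and 1.47 CPM to 5.08, 4.74 and 5.21 CPM (1.92 ± 0.144, adjusted p = 1.21e-07). For none of these genes did the labels overlap. Skil, a repressor of SMAD proteins that is itself induced by TGF-beta, rose from a mean of 18 ± 0.858 to 45.1 ± 2.14 CPM (SD, n = 3), a log2 fold change of 1.32.

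The TGF-beta and BMP list as a whole did not move in 1 direction. Of its 36 tested members, 11 were called higher (30.6%) and 6 lower (16.7%), and the median log2 fold change was 0.07 against 0.0004 over all genes tested. The remaining higher members were the inhibitor Smad7 (1.03), the receptors Acvr2a (0.61), Tgfbr1 (0.59) and Bmpr2 (0.47), Id2 (0.43) and the ubiquitin ligase Smurf2 (0.40). The lower members were the ligands Tgfb3 (-1.45) and Bmp2 (-0.88), the protease Bmp1 (-1.36), the signal transducer Smad3 (-0.65), the co-receptor Eng (-0.56) and Smurf1 (-0.47). The count of higher members stayed between 9 and 14 under every alternative tried. The other 19 members did not pass.

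Gdf3 sits in a block of genes on chromosome 6 that changed side by side. Upstream lies Apobec1 (gene 11810, chromosome 6 from 122577792 to 122603024, GRCm38), which encodes a cytidine deaminase that edits RNA. It stood at 82.1, 94.2 and 89.4 CPM in WT and at 260, 248 and 245 CPM in KO-labelled libraries (log2 fold change 1.50 ± 0.0737, adjusted p = 1.17e-09). Gdf3 follows from 122605403 to 122610087. Dppa3 (from 122626424 to 122630271), a gene of germ cells and early embryos, was counted 3, 2 and 4 times in WT and 82, 81 and 71 times in KO-labelled libraries. Its fitted log2 fold change of 4.60 rests on few WT counts (adjusted p = 3.71e-08). Nanog (from 122707489 to 122714633), a pluripotency factor, was barely detected at 3, 4 and 4 against 7, 12 and 12 counts (1.43, adjusted p = 0.0465), with decimal values in all 12 tables. Dppa3 and Nanog fell below the abundance set for named genes and were chosen after their values were seen. The next gene along, Slc2a3, a glucose transporter, was lower (-0.81), and Phc1 and M6pr on the far side of Apobec1 did not pass (0.01 and -0.04).

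Beside that block, the genes most raised with the knockout label were of varied roles. Wdfy1, which carries Toll-like receptor signals from endosomes, rose from 7.67, 7.98 and 8.65 CPM to 48.8, 49 and 48.9 CPM. Fabp7, a fatty-acid carrier (log2 fold change 1.36), Neto2, a receptor auxiliary protein (1.36), the deubiquitinase Usp2 (1.29) and Fut7, which builds selectin ligands (1.19), each separated the labels. Dynlt1b, a dynein light chain (1.60), the predicted genes Gm41885 (3.41) and Gm3325 (1.38) and the pseudogene Gm43828 (1.68) had decimal values in all 12 tables, so reads shared with other genes enter their levels. Below the abundance limit, Capn11, a calpain protease of the testis, had 0 counts in every WT library and 22, 18 and 23 in the KO-labelled ones, at least 6.86-fold higher against a floor of 3 counts per library. The non-coding gene Gm42031 was at least 13.1-fold higher on the same basis. Both were picked after their values were seen.

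**Figure D2:**
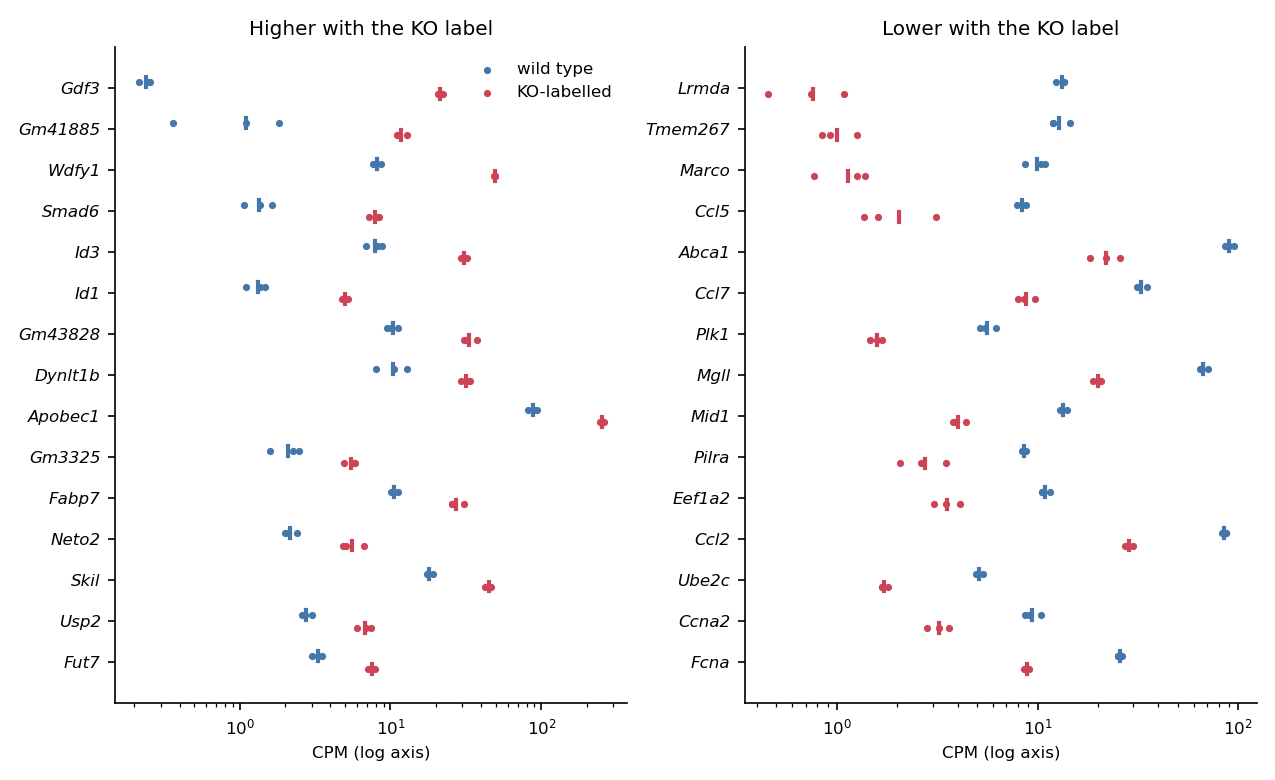
Scaled level (CPM, log axis) of the 15 genes with the largest rise and the 15 with the largest fall, 1 point per library and a bar at each group mean (blue WT, red KO-labelled). The 3 points of a label lie together for each gene and apart from the other label, as for Gdf3 at 0.214 to 0.253 against 20.5 to 22.3 CPM; by the selection rule no gene shown overlaps.

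The strongest falls lay in genes of different kinds. Lrmda, a gene tied to pigment cell differentiation, stood at 12.4, 13.6 and 13.5 CPM in WT and 1.09, 0.456 and 0.744 CPM in KO-labelled libraries (log2 fold change -4.10 ± 0.158, adjusted p = 7.30e-11). Tmem267, a membrane protein of little-known function, went from 14.5, 12 and 11.9 CPM to 1.26, 0.842 and 0.921 CPM (-3.66). Marco, a scavenger receptor that takes up bacteria and particles, went from 8.64, 10.4 and 10.9 CPM to 0.77, 1.26 and 1.38 CPM (-3.13). For all 3 genes every KO-labelled library lay far below every WT library. Further down the order came Mid1, a ubiquitin ligase of microtubules (-1.73), the inhibitory receptor Pilra (-1.64), Eef1a2, a translation elongation factor (-1.61), and Fcna, a ficolin that starts the lectin pathway of complement (-1.54). Of 30 tested genes within 0.5 Mb of Pilra, 6 were lower, among them Pilrb1 and Pilrb2 (-1.68 each), and 4 were higher.

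Among the 38 functional lists, genes of the cell cycle had the largest share called lower. Of 36 tested members, 30 were lower (83.3%, against 13.0% over all genes), 0 were higher and 6 did not pass, with a median of -1.05 on the log2 scale. Plk1, a kinase that drives mitosis, stood at 6.22, 5.19 and 5.47 CPM in WT and at 1.68, 1.47 and 1.59 CPM in KO-labelled libraries (-1.83 ± 0.146, adjusted p = 2.57e-07). The mitotic cyclin Ccna2 went from 8.68, 9.09 and 10.4 CPM to 3.64, 3.23 and 2.83 CPM (-1.54). Ube2c, which marks cyclins for destruction (-1.56), and the topoisomerase Top2a (-1.32) fell alike. The genes that license replication were lower by less, from Mcm5 (-0.85) to Mcm4 (-0.26). Mcm4 did not pass with DESeq2 (-0.24, adjusted p = 0.0596), with scaling by library totals alone, or whichever resting library was left out. The whole list summed to 523 to 529 CPM in WT and 396 to 401 CPM in KO-labelled libraries, of which the replication clamp Pcna, not called, gave a mean of 149 and 143 CPM. In bulk RNA, fewer dividing cells and less of these transcripts in each cell cannot be told apart, and the same holds for every cell-type or state marker below.

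The promoter of Plk1 is printed because it holds the short element TTTGAA, known as the cell cycle homology region, through which genes of late division are repressed in resting cells. Promoter windows here run from 250 bases before to 50 bases after a start site in RefSeq (GRCm38.p6), and TTTGAA, searched on both strands and chosen after the results were seen, is in capitals.
Plk1 promoter, chr7:122159185-122159484, plus strand: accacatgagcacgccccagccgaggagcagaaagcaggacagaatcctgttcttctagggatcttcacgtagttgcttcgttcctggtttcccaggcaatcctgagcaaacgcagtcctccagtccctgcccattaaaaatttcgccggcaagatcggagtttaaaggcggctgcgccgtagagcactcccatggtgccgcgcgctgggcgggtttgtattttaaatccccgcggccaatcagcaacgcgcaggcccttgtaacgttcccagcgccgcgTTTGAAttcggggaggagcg
Of the 25 cell cycle genes called lower for which a window was given, 12 held the element (48.0%), against 14.5% of 9651 tested genes with a window. The match describes letters in a window and not a bound site. The share among cell cycle genes not called lower was not counted, so the match cannot be tied to the fall.

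Of 25 tested members of cholesterol synthesis, 19 were lower (76.0%), 0 higher and 6 not called, with a median of -0.33. The falls were largest for Mvd, which makes isopentenyl units from mevalonate. It stood at 35.1, 33.5 and 35.4 CPM in WT and 17, 16.8 and 17.5 CPM in KO-labelled libraries, a log2 fold change of -1.02 ± 0.0786 (adjusted p = 1.73e-07). Acat2 (-0.90), Lss, the enzyme that closes the sterol rings (-0.72), and Hsd17b7 (-0.66) followed. These enzymes answer together to the sterol-sensing factor SREBP2, whose element TCACNCCAC was searched, again after the results were seen. It was found in 1 of the 14 called members with a window, Hmgcs1, and in 1.31% of all genes with one.
Hmgcs1 promoter, chr13:119690101-119690400, plus strand, element in capitals: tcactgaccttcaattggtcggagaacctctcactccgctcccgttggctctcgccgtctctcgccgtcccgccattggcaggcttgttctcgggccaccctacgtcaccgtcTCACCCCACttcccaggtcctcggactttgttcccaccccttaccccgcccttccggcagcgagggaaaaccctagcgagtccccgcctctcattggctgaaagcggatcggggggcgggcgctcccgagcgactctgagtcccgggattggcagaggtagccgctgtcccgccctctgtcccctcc
Hmgcs1, which makes the precursor of mevalonate, fell from 114 to 94.9 CPM (-0.27, adjusted p = 0.00211). It lies within 0.5 Mb of Tmem267 on chromosome 13.

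Other genes of lipid handling were called in both directions. In the list of sterol efflux and LXR targets, 6 of 14 were lower (42.9%), 2 higher and 6 did not pass. Abca1, the pump that loads cholesterol onto apolipoproteins, stood at 89.9, 85.5 and 94.9 CPM in WT and at 18.3, 21.9 and 25.8 CPM in KO-labelled libraries (-2.03 ± 0.137, adjusted p = 2.79e-07). Its partner pump Abcg1 fell from 162 ± 2.06 to 101 ± 3.83 CPM (SD, n = 3). Apoe, a carrier that accepts the exported lipid, rose from 4292 to 5630 CPM (0.39) and Apoc2 rose as well (0.50). Among 21 genes of fatty acids and lipid droplets, 7 were lower and 2 higher. Mgll, which frees fatty acids from monoglycerides, went from 70.5, 64.5 and 65.3 CPM to 19, 20.7 and 20.4 CPM (-1.74). The desaturase Scd2 (-1.49) and fatty acid synthase, Fasn (-1.11), were lower, as was the lipid droplet protein Hilpda (-0.73).

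Of 43 tested interferon-stimulated genes, 23 were lower (53.5%), 2 higher and 18 not called, and the median was -0.36. Irf7, the factor that amplifies interferon production, stood at 112, 119 and 99.4 CPM in WT and at 30.2, 41.2 and 62.1 CPM in KO-labelled libraries (-1.31 ± 0.205, adjusted p = 0.00113). Ifitm3, which blocks virus entry, went from 242, 259 and 227 CPM to 81.1, 104 and 140 CPM (-1.16, adjusted p = 6.87e-04). Both genes were highest among the KO-labelled libraries in replicate 3, and still below every WT library. Ifit3 (-1.05) and the tetherin gene Bst2 (-0.92) fell too, while the Schlafen genes Slfn4 (0.71) and Slfn8 (0.31) were higher. The count of lower members was sensitive to single libraries. It was 13 without WT replicate 1, 13 without KO-labelled replicate 1, 12 without KO-labelled replicate 2 and 29 without KO-labelled replicate 3.

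The promoters of Ifitm3 and Ifit3 are shown because each carries the interferon-stimulated response element GAAANNGAA more than once. Matches on either strand are in capitals, so some read as the reverse complement.
Ifitm3 promoter, chr7:141010695-141010994, minus strand: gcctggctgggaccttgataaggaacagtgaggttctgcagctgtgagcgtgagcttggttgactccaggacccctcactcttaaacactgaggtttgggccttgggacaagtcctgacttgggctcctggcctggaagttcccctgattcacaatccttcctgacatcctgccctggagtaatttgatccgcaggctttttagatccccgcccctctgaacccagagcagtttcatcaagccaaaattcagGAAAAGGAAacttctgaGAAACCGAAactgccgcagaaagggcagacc
Ifit3 promoter, chr19:34583279-34583578, plus strand: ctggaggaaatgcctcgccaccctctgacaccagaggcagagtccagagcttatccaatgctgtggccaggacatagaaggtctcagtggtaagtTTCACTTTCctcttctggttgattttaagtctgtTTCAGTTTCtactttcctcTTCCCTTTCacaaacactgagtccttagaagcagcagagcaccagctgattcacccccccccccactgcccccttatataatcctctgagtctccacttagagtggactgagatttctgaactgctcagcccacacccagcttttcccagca
Of the 18 lower members with a window, 10 held the element (55.6%), against 8.94% of all tested genes with a window. The list was built of interferon-stimulated genes, and the share among its members not called lower was not counted. The match therefore cannot be tied to the fall. The related interferon-inducible GTPases, which attack vacuoles of intracellular microbes, had 7 of 16 tested members lower and 0 higher. Gbp2 (-0.80), Gbp7 (-0.43), Irgm1 (-0.41) and Ifi47 (-0.38) were among them. All 16 had decimal values in some library, and members of this family resemble each other closely.

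Chemokine genes were lower or did not pass. Of 21 chemokine genes tested, 12 were lower (57.1%) and 0 higher, with a median of -0.95. Ccl2, the main monocyte attractant, stood at 82.6, 86.9 and 86.4 CPM in WT and at 27.4, 28.4 and 29.9 CPM in KO-labelled libraries (-1.58 ± 0.0984, adjusted p = 2.30e-08). Ccl7, its neighbour on chromosome 11, went from 34.9, 31.9 and 31.4 CPM to 8.61, 7.97 and 9.74 CPM (-1.90). Ccl5, which attracts T cells, went from 8.35, 8.76 and 7.86 CPM to 1.37, 1.61 and 3.12 CPM (-2.03). Ccl6, the most abundant gene of the list, fell from a mean of 668 ± 36.8 to 256 ± 12.2 CPM (SD, n = 3). Of 12 chemokine and related receptors tested, 4 were lower (33.3%) and 2 higher, with a median of -0.26. Among the higher, Cxcr4, which keeps leukocytes in marrow, rose from 68.7 to 116 CPM (0.75). Cytokine genes were mixed, with 4 of 24 higher and 4 lower. The interleukin-1 antagonist Il1rn was lower, from 106 to 46.1 CPM (-1.19), and so was Il1a (-0.46), while Tnfsf13 (0.45) and Osm (0.30) were higher.

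In the complement list, 10 of 18 members were lower (55.6%) and 0 higher. Cfb, which forms the alternative-pathway convertase, went from 27.1, 28.2 and 27 CPM to 8.19, 10.7 and 14.3 CPM (-1.31, adjusted p = 2.36e-05). C3, the component all pathways cleave, went from 66.4, 56.2 and 61.4 CPM to 20.8, 26.3 and 28.7 CPM (-1.28). C1qa (-1.03), which starts the classical pathway, and properdin, Cfp, fell likewise. For each of these 4 genes the highest KO-labelled library stayed below the lowest WT library. In MHC class II, 6 of 8 members were lower (75.0%) and 0 higher. Cd74, the chain that guides class II molecules, fell from 447 ± 26.5 to 277 ± 24.9 CPM (SD, n = 3, log2 fold change -0.69). The chains H2-Eb1 (-0.58), H2-Ab1 (-0.51) and H2-Aa (-0.49) were lower by similar steps. In MHC class I, 6 of 20 were lower, 1 higher and 13 did not pass, with a median of -0.06.

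Lists of tissue-repair and phagocytic macrophages held more lower than higher genes, and many members that did not pass. Of 17 genes of alternative activation, 9 were lower and 1 higher. Mrc1, the mannose receptor, stood at 276, 263 and 280 CPM in WT and at 125, 109 and 122 CPM in KO-labelled libraries (-1.20). Il4ra, the receptor of interleukin 4 (-0.30), was lower, whereas the chitinase-like Chil3 rose from 75.5, 76.2 and 75 CPM to 141, 134 and 124 CPM (0.81). Thus the list held members moving both ways. Of 15 efferocytosis genes, 6 were lower, 2 higher and 7 did not pass, with a median of -0.14. Mfge8, which bridges dying cells to phagocytes, fell from 802, 798 and 784 CPM to 319, 319 and 335 CPM (-1.29, adjusted p = 2.44e-10). Another bridge, Gas6, was lower (-0.67), and the integrins Itgav (0.42) and Itgb5 (0.35) that bind Mfge8 were higher. Besides Marco and Mrc1, the scavenger receptors Cxcl16 (-0.95) and Cd36 (-0.31) were lower, with 4 of 13 lower, 1 higher and 8 not called in that list.

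Proteases of the matrix and the lysosome included abundant transcripts. Of 24 genes of matrix and proteases, 10 were lower and 4 higher. Mmp12, macrophage elastase, stood at 1685, 1664 and 1718 CPM in WT and at 707, 735 and 685 CPM in KO-labelled libraries (-1.25 ± 0.0855, adjusted p = 4.95e-08). The inhibitor Timp1 (-1.19), the matrix protein Sparc (-0.95) and the membrane protease Mmp14 (-0.70) were lower too. Ctsl, a lysosomal cathepsin, was more abundant still and fell from 3262, 3414 and 3277 CPM to 1777, 1800 and 1757 CPM (-0.90). Its relative Ctsk fell from a mean of 185 to 99.8 CPM (-0.89). In the lysosome list as a whole, 13 of 52 members were lower (25.0%) and 2 higher, with a median of -0.09.

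Some groups were called higher more often than the 12.3% of all genes. In the list of NRF2 and antioxidant genes, 6 of 19 were higher (31.6%) and 0 lower. Gclm and Gclc, the subunits of the enzyme that sets glutathione synthesis, rose from 45.5 ± 1.76 to 73.6 ± 4.74 CPM (0.69) and from 33 ± 0.498 to 49.7 ± 4.7 CPM (0.59, SD, n = 3). Glutathione reductase, Gsr, was higher by 0.38. Of 24 Toll-like receptors and adaptors, 7 were higher and 2 lower, among them the RNA sensors Tlr8 (0.43) and Tlr13 (0.40), the kinase Irak2 (0.38) and the adaptor Tirap (0.32). Of 21 inflammasome genes, 5 were higher and 2 lower. The flagellin sensors Naip5 and Naip6 both rose by 0.59 and Nlrp1b by 0.74, with decimal values in all 12 tables for each. The necroptosis kinase Ripk3 was lower (-0.54).

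Transcription factors of the myeloid lineage were called in both directions, 9 of 24 higher (37.5%) and 5 lower. Besides Id3, Runx3 (0.79) and Cebpa, a driver of myeloid differentiation, were higher. Cebpa rose from 377, 384 and 368 CPM to 531, 539 and 541 CPM (0.51, adjusted p = 2.42e-05), and Ets2 was lower (-0.59). Immediate early genes had 8 of 25 higher and 3 lower, including Klf2 (0.54), Klf4 (0.52), the phosphatase Dusp2 (0.48) and the mRNA-decay factor Zfp36 (0.41). Of 17 clock genes, 4 were higher and 0 lower, with the repressor Nr1d2 at 0.45 and Bhlhe40 at 0.23. In the NF-kB list, 3 of 21 were higher and 3 lower, near the background each way.

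**Figure D3:**
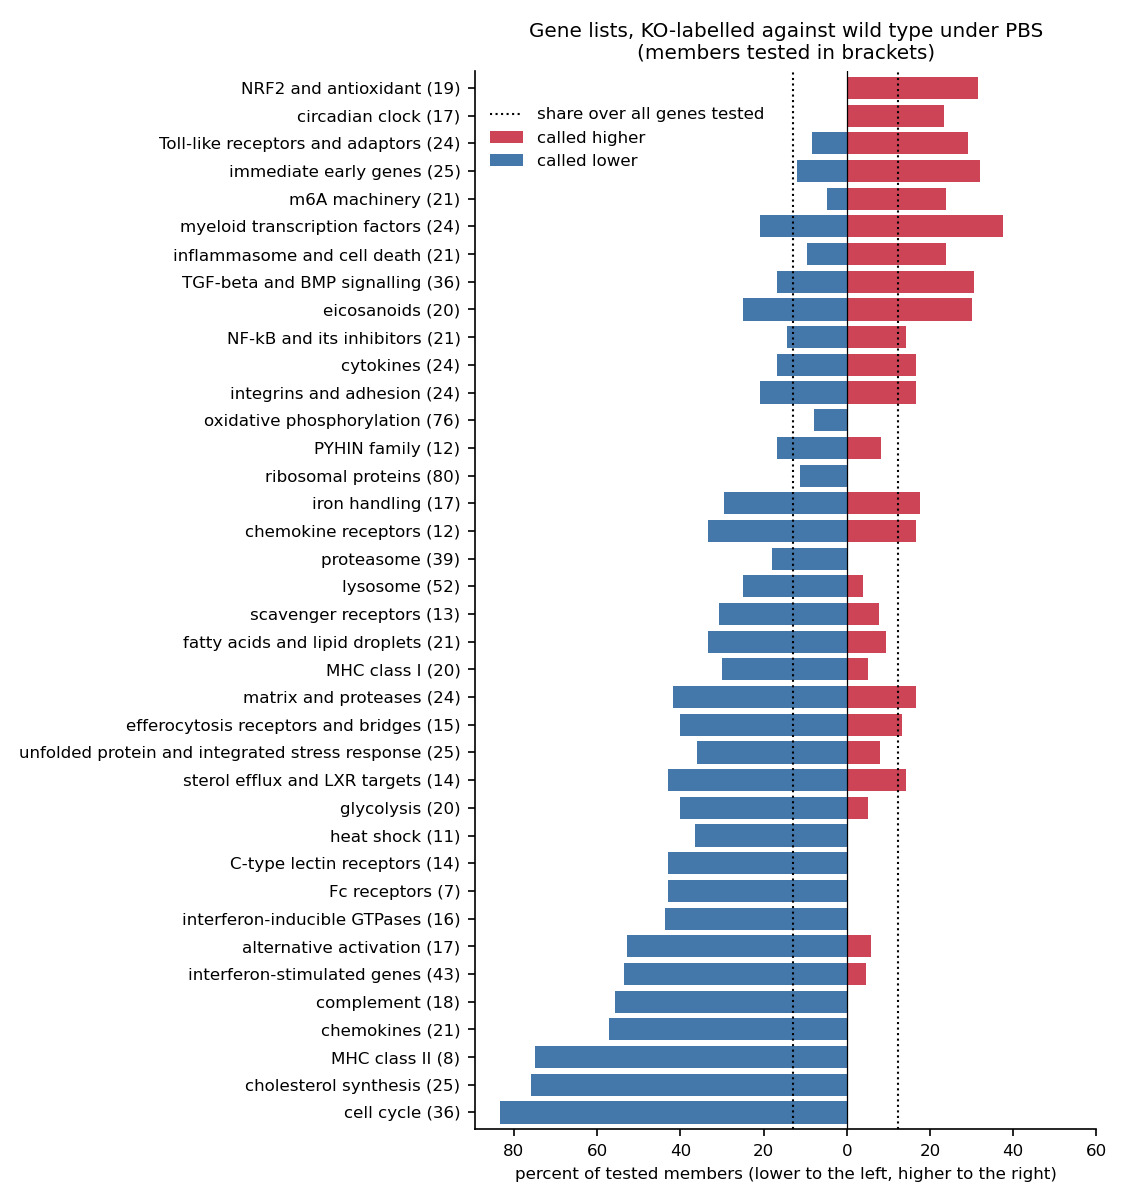
Percent of tested members called higher (red, to the right) and lower (blue, to the left) in each of 38 functional gene lists, KO-labelled against WT under PBS, with the number tested in brackets. Dotted lines mark the shares over all genes, 12.3% and 13.0%; cell cycle, cholesterol synthesis, MHC class II, chemokines, complement and interferon-stimulated genes extend farthest to the left, and NRF2 and clock genes have no member on that side.

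Lists of machinery that every cell shares differed in their shares of lower genes, and few of their members were higher. None of 76 tested genes of oxidative phosphorylation was higher and 6 were lower (7.89%), at a median of -0.04. Of 80 ribosomal protein genes, 9 were lower (11.2%) and 0 higher, and of 39 proteasome genes, 7 were lower (17.9%) and 0 higher. The medians were -0.10 and -0.08. Glycolysis had 8 of 20 members lower (40.0%) and 1 higher, with Pgk1 falling from 221 to 154 CPM (-0.52) and the liver-type phosphofructokinase Pfkl rising (0.45). Of 25 genes of the unfolded protein and integrated stress response, 9 were lower (36.0%) and 2 higher, with Calr, a chaperone of the endoplasmic reticulum, falling from 1835 to 1342 CPM (-0.45) and the serine-synthesis enzyme Psat1 at -0.52. Heat shock genes had 4 of 11 lower (36.4%) and 0 higher. Of 12 housekeeping genes, Pgk1 and Gapdh (-0.27) were lower and Hprt (0.25) was higher, though not with a correction for GC content (0.06).

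Markers of other cells were measured to see which sources differed between the labels. Fibroblast markers were lower, with 5 of 7 tested called and a summed 75.8 to 89.7 CPM in WT against 34.1 to 47.5 CPM in KO-labelled libraries. Col1a2, a chain of type I collagen, went from 36, 30.6 and 33.3 CPM to 12, 16.3 and 14.7 CPM (-1.22, adjusted p = 7.19e-07), and Pdgfra, a receptor of stromal cells, from 10.3, 9.09 and 9.69 CPM to 3.71, 5.55 and 4.14 CPM (-1.12). Lum, another gene of fibroblasts, lay at or under 0.0238 CPM on average in both groups. Of 8 mesothelial markers tested, 2 were lower, the factor Wt1 (-1.61) and Upk3b (-1.11), while keratins Krt8 and Krt18 and mesothelin were not called. Gata4, a factor of mesodermal tissues named here after its value was seen, fell from 1.7, 2.15 and 2 CPM to 0.105, 0.0702 and 0.319 CPM (-3.53, adjusted p = 1.25e-06). The KO-labelled libraries held 3, 2 and 9 counts of it, at or near the floor of 3, so the size of its fall is uncertain. The fall in collagen and matrix transcripts thus moved with these low-level markers, and the part of stromal cells in the matrix results was not tested.

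Both lists of markers of macrophage origin had a larger share of lower genes than the 13.0% over all genes. Of 14 resident peritoneal markers tested, 7 were lower and 2 higher, and their summed level was 135 to 136 CPM in WT and 126 to 133 CPM in KO-labelled libraries. Gata6, the factor that defines resident cells of the cavity, stood at 2.6, 2.72 and 2.93 CPM in WT and 1.02, 0.878 and 1.45 CPM in KO-labelled libraries (-1.30, adjusted p = 2.01e-04). Timd4 (-1.93) was at a mean of 0.419 against 0.106 CPM, and the secreted Cd5l fell from 47.9 to 31.7 CPM (-0.60). Of 15 markers tied to monocyte-derived cells, 9 were lower and 1, Chil3, was higher. Most of their summed 781 to 810 CPM in WT and 479 to 509 CPM in KO-labelled libraries came from Mrc1 and Itgax, an integrin that fell from 334, 318 and 336 CPM to 165, 159 and 164 CPM (-1.02). Ly6c2 and Ccr2, which mark fresh monocytes, were not called, at 8.22 against 10.2 and 12.1 against 12.3 CPM.

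Lymphocytes and granulocytes left few traces. Of 5 neutrophil markers tested, 3 were higher and 1 lower, with a summed 207 to 210 CPM in WT and 318 to 323 CPM in KO-labelled libraries, which came almost wholly from Csf3r (98.2 to 163 CPM, 0.73) and Mmp8 (100 to 147 CPM, 0.56). S100a8 overlapped between the labels (adjusted p = 0.462), Camp and Retnlg were at 0 in all 6 libraries, and Mmp9 was lower (-1.61). The defining genes of B cells and T cells were nearly absent. Ms4a1 had means of at most 0.0841 CPM, Cd3e had 0 counts in the 6 libraries, and Cd22 and Cd28 made up nearly all of those lists. Natural killer, mast cell and erythroid lists summed to at most 1.27 CPM in any resting library. Skeletal muscle markers were present at 26.6 to 33.8 CPM in WT and at 24.8, 29.8 and 3.83 CPM in KO-labelled replicates 1 to 3. None of the 12 was called, and replicate 3 alone was low, as for muscle actin, Acta1, at 0.0354 CPM against 7.07 and 9.55 CPM. After LPS all 12 were lower with the knockout label, with a median of -6.86 and sums of 39.1 to 46.2 CPM in WT and 1.47 to 2.27 CPM in KO-labelled libraries.

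Other sources differed by few genes. Both platelet markers tested, Pf4 (-0.44) and the integrin Itgb3 (-0.35), were lower, with sums of 124 to 134 CPM in WT and 91.5 to 101 CPM in KO-labelled libraries. The endothelial list summed to 101 to 103 CPM against 126 to 142 CPM, with 1 of 3 called, the receptor Kdr, which was higher (0.78). Of 3 smooth muscle markers, 2 were lower, desmin, Des (-1.32), and the actin Acta2 (-0.31). Of 4 dendritic cell markers, 3 were lower, in a list that summed to at most 2.53 CPM in any resting library.

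**Figure D4:**
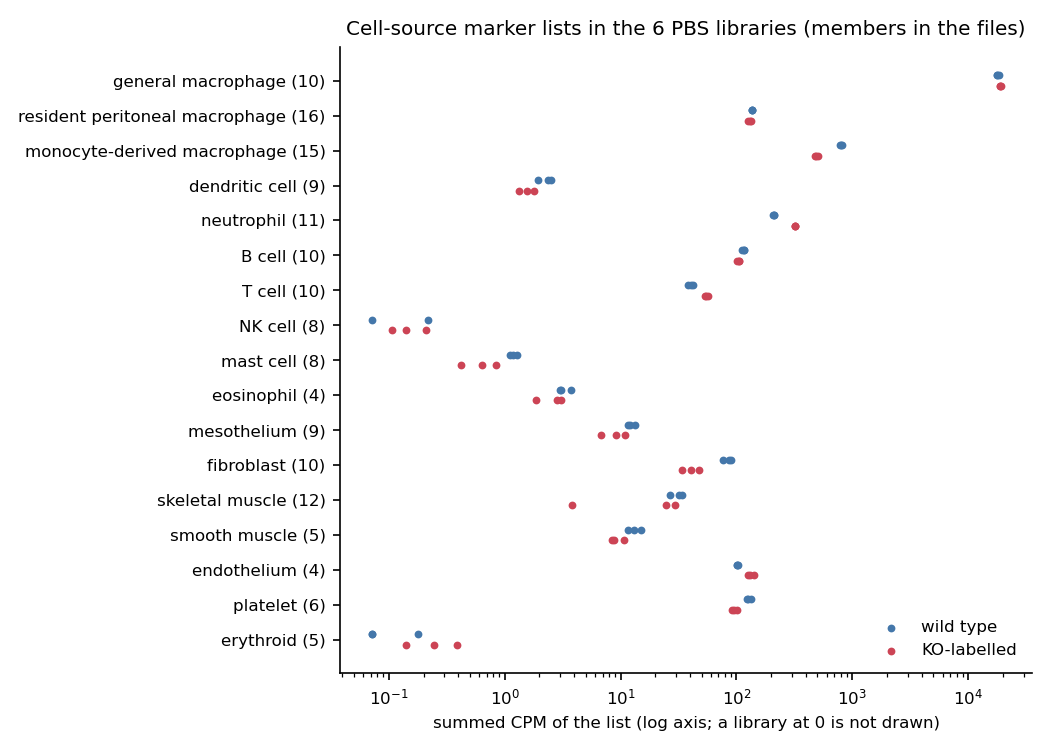
Summed CPM (log axis) of each cell-source marker list in the 6 resting libraries, 1 point per library (blue WT, red KO-labelled); members present in the files are counted in brackets, and the adipocyte list, at or near 0, is not drawn. General macrophage genes lie above 17706 CPM in every library; the fibroblast and monocyte-derived lists are lower in all 3 KO-labelled libraries, and 1 KO-labelled library is low for skeletal muscle.

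Of 6 tested genes known to differ between C57BL/6 substrains, 2 were higher, 1 was lower and 3 did not pass. Nnt, a mitochondrial enzyme whose gene is partly deleted in the C57BL/6J substrain, stood at 18.5, 18.8 and 16.9 CPM in WT and at 38, 38.7 and 38.9 CPM in KO-labelled libraries (1.09 ± 0.0901, adjusted p = 3.59e-07). Wdfy1, named above, was the other higher gene, and Fgfbp3, a carrier of fibroblast growth factors, was lower (-0.46). The sources used here give the substrain of neither group. Of 6 Y-linked genes tested, 4 were higher with the knockout label, by 0.46 for Kdm5d, 0.45 for Ddx3y, 0.38 for Eif2s3y and 0.30 for Uty, and these 4 were expressed under both labels. With a correction for GC content, Ddx3y (0.14), Eif2s3y (0.13) and Uty (0.06) did not pass. The pseudogene Gapdh-ps15, with decimal values in all 12 tables, was lower (-0.70, adjusted p = 0.0467), and Uba1y did not pass (0.58), both looked at after the results were seen. The part of these differences in the other results was not tested.

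The called genes were spread over the genome, with some exceptions. On the autosomes other than chromosome 13 and on X, 22.5% to 27.6% of tested genes were called. Within 5 Mb of Ythdf1, 8 of 57 tested genes were higher and 7 lower (26.3% called), and within 10 Mb, 10 of 84 were higher and 13 lower (27.4%). Eef1a2, one of the genes that fell most, lies within 1 Mb of Ythdf1. Chromosome 13 had 100 of 448 genes higher (22.3%), where the other chromosomes except Y ranged from 9.24% to 15.9%. On it, 45 genes were lower. Between 60 and 70 Mb of that chromosome, 22 of 58 genes were higher (37.9%) and 5 lower. Near its end, Nnt (from 119335527 to 119409257) and Tmem267 (from 119488086 to 119610459) lie close together, with log2 fold changes of 1.09 and -3.66. Of 9 tested genes within 0.5 Mb of Tmem267, 3 were higher and 3 lower. Ccl28 (-4.35) and Hmgcs1 (-0.27) were among the lower ones.

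That segment of chromosome 13 is rich in zinc finger genes, so genes named Zfp and a number were counted, a choice made after the results were seen. Many of these encode DNA-binding proteins, and the set also holds RNA-binding ones such as Zfp36. Of 330 tested, 90 were higher (27.3%) and 2 lower (0.606%), with a median of 0.23. Outside chromosome 13, 75 of 296 were higher (25.3%), and on it 15 of 34 (44.1%). Of the 414 other tested genes of chromosome 13, 85 were higher (20.5%). Many share reads with their relatives, 215 of the 330 having decimal values. Among the 115 with whole numbers in every table, 25 were higher (21.7%) and 1 lower, against 10.8% higher over all such genes. Zfp738 (0.71) and Zfp729a (0.69), both on chromosome 13, are examples.

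Last, the differences at rest were looked up in the LPS libraries, where 22.1% of genes were higher and 19.3% lower with the knockout label. Of the 15 genes that rose most at rest, 11 were also higher after LPS and 4 did not pass. Of the 15 that fell most, 11 were also lower, 3 were higher and 1 did not pass. Gdf3 was higher by 3.63 after LPS and Lrmda at -4.28 on the log2 scale. The 3 genes that turned were Ccl5 (0.47), Ccl2 (0.27) and Pilra (0.27). In the cell cycle list 20 of the 30 lower genes were lower again, whereas none of the 23 lower interferon-stimulated genes was. After LPS, 24 of the 43 interferon-stimulated genes were higher and 0 lower, with a median of 0.33. A test of the difference between both conditions, the interaction of label and LPS, was called with a larger value under LPS for 9.78% of all genes and with a smaller one for 8.26%. It was called for 35 of the 43 interferon-stimulated genes, for 13 of 21 chemokines and for 14 of 25 genes of cholesterol synthesis with a larger value, and for 0, 1 and 3 with a smaller one. In the cell cycle list it was called for 10 of 36 with a larger value and for 1 with a smaller one.

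**Figure D5:**
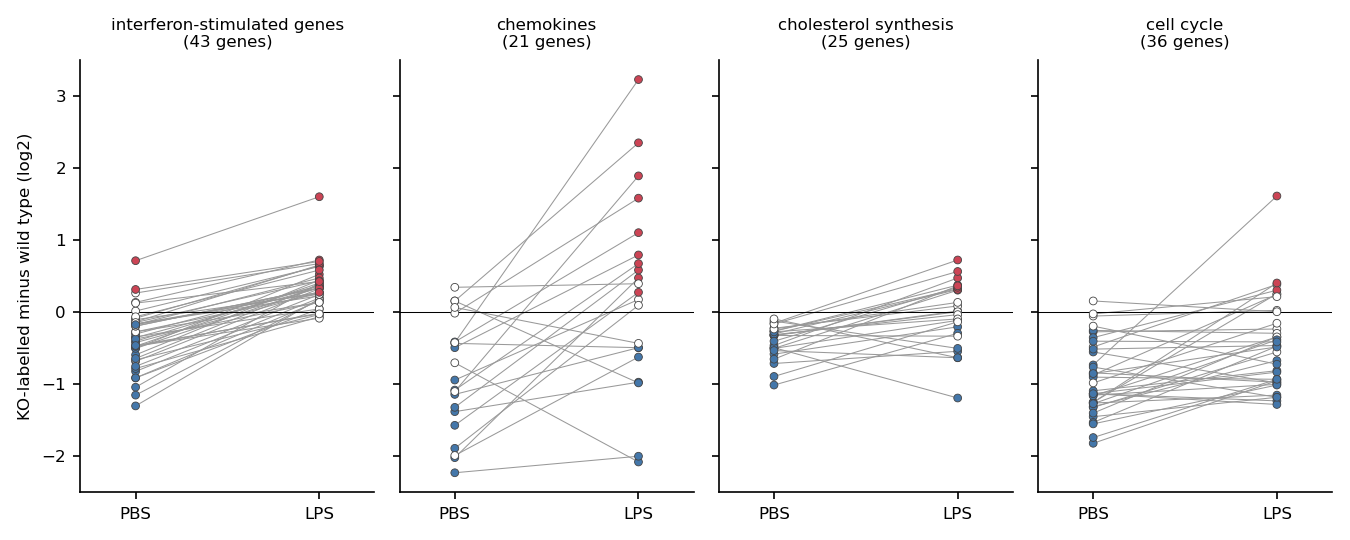
Difference between KO-labelled and WT libraries (log2, vertical axis) under PBS and under LPS for the tested members of 4 gene lists, 1 line per gene; filled points were called higher (red) or lower (blue) and open points were not called. The 43 interferon-stimulated genes move from a median of -0.36 to 0.33, while the 36 cell cycle genes stay mostly below 0 in both, at medians of -1.05 and -0.49.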

How the data were processed

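RNA of 12 macrophage samples was sequenced by the authors on a BGISEQ-500 as single reads of 50 bases. The authors deposited 1 table per sample with expected counts per gene, estimated values that need not be whole because reads matching several genes are shared. The submitters' processing notes name Bowtie2, RSEM 1.3.1 and GRCm38.p6, whereas the study's methods name STAR and HTSeq. The decimals in these tables would follow from RSEM. No strand setting is given in the sources used here.

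The deposited expected counts were rounded to whole numbers and tested in edgeR 4.0.16 (R 4.3.3) with TMM scaling, the default filter on low counts over the 4 groups, and robust quasi-likelihood fits to 1 mean per group over all 12 libraries, which share 1 estimate of spread. The biological coefficient of variation was 6.99%. The Benjamini-Hochberg adjustment ran over 12064 genes, with a threshold of 0.05. CPM values are rounded counts divided by the TMM-scaled library total and multiplied by 1e+06, and log2 fold changes are KO-labelled minus WT. A floor of 3 counts equals 0.105 to 0.108 CPM in the resting libraries.

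Named genes were the 15 with the largest change each way among called genes with at least 5 CPM in the higher group and no overlap of libraries, the 4 called members of each list with the largest change, and the check genes and cell-source markers. Further list members and genes under that level were chosen after their values were seen. The members and lists were chosen with earlier results of these data known. Symbols and positions came from RefSeq (GRCm38.p6), which matched 16803 of 16920 genes. The fit was tested on simulated counts. Alternatives covered scaling, filters, DESeq2 1.42.0, GC content, a replicate block and leaving out each library. The count of Zfp genes was added after seeing the data. Some genes are not reported here.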

Additional observations from a re-analysis of the deposited data

Results flagged for a closer look

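The difference between the labels was compared between resting and LPS-treated macrophages by the interaction term of the edgeR quasi-likelihood fit, with p-values adjusted over all genes tested. For the genes below that term was called. Each value is the log2 difference between the labels under LPS minus that under PBS, from 3 libraries per group. No explanation of these differences was tested.

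Among the named genes that were lower with the knockout label at rest, the value was larger under LPS for Ccl5 (2.50), Il1a (2.34), Ccl7 (1.99), Pilra (1.91), Ccl2 (1.85), Abca1 (1.69), Il1rn (1.69), Cfb (1.65), Irf7 (1.49), Ifit3 (1.46), Marco (1.43), Hilpda (1.42), Ifitm3 (1.33), Timp1 (1.26), Ets2 (1.15), Cxcl16 (1.11), Gbp7 (1.08), Bst2 (1.06), Ccna2 (1.05), Hsd17b7 (1.01), Gbp2 (1.00), Plk1 (0.86), Mmp14 (0.81), Mmp9 (0.77), Acat2 (0.76), Mvd (0.72), Bmp1 (0.70), Top2a (0.64), Hmgcs1 (0.63), Igf2bp2 (0.58), Ifi47 (0.57), Eng (0.55), Irgm1 (0.50), Il4ra (0.50), Smurf1 (0.43) and Ccl6 (0.40). It was smaller for Abcg1 (-1.06), Fgfbp3 (-0.87), Gas6 (-0.73), Psat1 (-0.31), C1qa (-0.28) and Gapdh (-0.25).

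Among the named genes that were higher with the knockout label at rest, the value was larger under LPS for Osm (1.04), Slfn4 (0.88), Bhlhe40 (0.71), Gclc (0.49), Ddx3y (0.49), Tirap (0.48), Eif2s3y (0.41), Slfn8 (0.40) and Gsr (0.34). It was smaller for Gdf3 (-2.82), Smad6 (-1.39), Cd28 (-1.27), Neto2 (-1.17), Apobec1 (-1.11), Gm3325 (-1.06), Pfkl (-0.97), Runx3 (-0.92), Fabp7 (-0.86), Skil (-0.80), Itgb5 (-0.75), Gm43828 (-0.74), Smad7 (-0.64), Id3 (-0.62), Dusp2 (-0.62), Tnfsf13 (-0.60), Cebpa (-0.44), Ythdf1 (-0.42), Klf4 (-0.38) and Csf3r (-0.36).

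Among the named genes that were not called at rest, the value was larger under LPS for Ly6c2 (1.33). It was smaller for Cd22 (-0.53).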

How the results depend on the processing

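The count of 3058 genes called between the labels at rest was 4627 when only the 6 PBS libraries were fitted, 1875 of 7122 when only genes with whole-number values were kept, and 399 when a fold beyond 1 log2 unit was asked as well. Leaving out 1 library at a time gave 1992 to 2529 called genes, the fewest without KO-labelled replicate 1. The 23 interferon-stimulated genes called lower became 13 in that whole-number fit and ranged from 12 to 29 when 1 library was left out. The same fit called 7 chemokines and 2 MHC class II genes lower, where the fit to all genes called 12 and 6, and fewer such genes were tested. The 90 zinc finger genes called higher became 31 when the filter, scaling and fit were run anew on whole-number genes alone, against 25 such genes in the fit to all genes, and 56 to 87 with 1 library left out, the fewest without KO-labelled replicate 1. A fit with the replicate block, the shared replicate number as a term, called 2969 genes. Same-numbered WT and KO-labelled resting libraries had correlations of deviations of -0.084, 0.058 and 0.022, and other pairs had -0.098 to 0.074. With 3 libraries per label these values cannot settle whether the numbers pair samples. Resting and LPS libraries of the same number were not compared in this way. DESeq2 called 3022 genes and a correction for GC content 3042. Of 159 named genes called at rest, 86 had a value under every alternative, and 77 of these kept the call throughout. The other 73, such as Gdf3, could not be tested under at least 1 alternative, mostly for decimal values or low counts, and 61 kept the call where they were tested. The correction for GC content ended the call of 12 named genes, Acta2, Ddx3y, Eif2s3y, Fgfbp3, Gapdh-ps15, Hnrnpa2b1, Hprt, Nanog, Slfn8, Upk3b, Uty and Ythdc1. The replicate block ended that of Acta2, Fgfbp3, Gapdh-ps15, Slfn4 and Upk3b. None of the 171 named and tested genes changed direction while called. The depth of at least 21610299 counts leaves genes near 0.105 CPM, 3 counts, unresolved.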
